A study of Homo sapiens with 8 samples.

Results

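The genes described here are the receptor *FGFR2* and 8 genes of the fibroblast growth factor (FGF) family, *FGF3*, *FGF4*, *FGF6*, *FGF8*, *FGF9*, *FGF14*, *FGF19* and *FGF23*. They were taken by gene symbol from the array annotation, all 9 of the listed genes were found among 4072 named genes, and each was read by 1 transcript cluster, a set of probes that the array summarizes to a single signal. RNA came from clones of the human prostate cancer line LNCaP, isolated by serial dilution after lentiviral transduction and blasticidin selection. The 4 control clones (3, 4, 8 and 9) carried the control vector, and the 4 *HIST1H1A* clones (2, 8, 9 and 10) stably over-expressed *HIST1H1A*, the gene of linker histone H1.1. Each clone was measured on 1 Affymetrix Human Gene 2.0 ST array, so differences between clones and differences in measurement cannot be told apart. All values are log2 signals as deposited, and a difference of 1 is a fold change of 2.

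FGFs are secreted proteins that bind heparan sulfate and receptor tyrosine kinases of the FGFR family, which signal through RAS and MAP kinases and induce their own feedback inhibitors. In the prostate, epithelial cells carry the IIIb splice form of FGFR2 and respond to FGFs made by the stroma. The family also holds hormones, FGF19 and FGF23, which need klotho proteins as co-receptors. FGF14 is not a ligand in the usual sense, since it stays inside the cell and binds voltage-gated sodium channels, so the name FGF ligands does not hold for that gene.

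The promoters below are shown because *FGFR2* and the feedback inhibitor *SPRY2* rose, while *FGF3* and *FGF23* did not pass the test. Each is 300 bases of RefSeq on GRCh38.p14, 250 before the transcript start and 50 after it, read 5′ to 3′ on the minus strand. Of the 9 genes, 5 had a promoter in the table used, in 12 entries: *FGFR2* (5), *FGF3* (1), *FGF6* (1), *FGF14* (4) and *FGF23* (1). For *FGFR2* and *SPRY2*, which had 5 and 3 entries, the entry farthest upstream is printed. Capitals mark matches on either strand to 4 motifs: the GC box GGGCGG, the AP-1 motif TGANTCA, the ETS motif CCGGAA and the E-box CACCTG. Neighbouring matches can overlap, as in the last capitals of the *FGFR2* promoter.
FGFR2, chr10:121598395-121598694: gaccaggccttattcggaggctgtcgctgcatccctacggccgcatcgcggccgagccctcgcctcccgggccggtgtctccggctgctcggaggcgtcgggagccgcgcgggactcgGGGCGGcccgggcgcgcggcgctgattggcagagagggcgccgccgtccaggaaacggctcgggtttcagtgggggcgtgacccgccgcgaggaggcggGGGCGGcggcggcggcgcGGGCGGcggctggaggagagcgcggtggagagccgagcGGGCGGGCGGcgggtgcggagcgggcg
FGF3, chr11:69819367-69819666: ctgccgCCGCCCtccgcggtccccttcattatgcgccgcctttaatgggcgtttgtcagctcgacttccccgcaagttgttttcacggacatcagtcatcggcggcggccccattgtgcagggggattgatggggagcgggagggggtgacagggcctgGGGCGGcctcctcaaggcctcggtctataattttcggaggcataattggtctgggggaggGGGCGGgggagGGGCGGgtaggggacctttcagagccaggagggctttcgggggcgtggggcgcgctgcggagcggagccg
FGF23, chr12:4379663-4379962: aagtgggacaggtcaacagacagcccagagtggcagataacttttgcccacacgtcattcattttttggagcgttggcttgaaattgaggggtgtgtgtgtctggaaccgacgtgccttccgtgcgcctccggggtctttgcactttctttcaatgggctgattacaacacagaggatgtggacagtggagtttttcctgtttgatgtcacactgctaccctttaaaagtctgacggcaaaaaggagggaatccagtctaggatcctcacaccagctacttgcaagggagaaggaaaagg
SPRY2, chr13:80341077-80341376: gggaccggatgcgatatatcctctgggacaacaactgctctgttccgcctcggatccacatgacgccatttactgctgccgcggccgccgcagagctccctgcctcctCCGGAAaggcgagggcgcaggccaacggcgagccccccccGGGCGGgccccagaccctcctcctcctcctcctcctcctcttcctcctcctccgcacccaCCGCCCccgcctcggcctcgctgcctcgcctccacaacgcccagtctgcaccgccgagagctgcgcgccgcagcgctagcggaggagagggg

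The printed *FGFR2* promoter held 5 GC boxes and 52 CpG dinucleotides, where the median of 35116 promoters was 14 CpG. The other 4 *FGFR2* entries held 0 or 1 GC box and 5 to 8 CpG. *FGF3* held 4 GC boxes and 26 CpG, *FGF23* 0 and 8, and *SPRY2* 2 and 30. A GC box occurred in 45.0% of the 35116 promoters, an AP-1 motif in 7.7%, an ETS motif in 17.2% and the E-box in 20.6%. Of the 12 entries of these genes, 0 held an AP-1 or ETS motif and 1, an *FGFR2* entry not printed, held the E-box. The printed *SPRY2* promoter held 1 ETS motif. Matches are letters in these windows only, and the array does not tell which start a transcript used.

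*FGFR2* was higher in *HIST1H1A* clones, while 0 of the 8 FGF family genes passed the test. The *FGFR2* cluster (16719025, chromosome 10) had log2 signals of 3.45, 3.34, 2.80 and 2.96 in control clones 3, 4, 8 and 9. In *HIST1H1A* clones 2, 8, 9 and 10 it had 4.45, 4.25, 4.55 and 4.39. Every *HIST1H1A* clone was above every control clone, and the gap between the groups was 0.80. The mean was 3.14 ± 0.31 (SD, n = 4) in control and 4.41 ± 0.12 (SD, n = 4) in *HIST1H1A* clones, which gives 1.27 as the log2 fold change (95% interval 0.89 to 1.65, standard error 0.17, limma adjusted p = 0.0025). This was a 2.41-fold rise, and its interval reaches below a fold of 2. By the exact two-sided permutation test over the 8 arrays p was 0.0286, the smallest that 70 splits allow, and 0.257 after Benjamini-Hochberg adjustment over the 9 genes. The study lists *FGFR2* among genes picked on these arrays, so the rise is not independent evidence. Its list also holds *FGF2*, *FGF5*, *FGF11*, *FGFR1* and *FGFR3* as higher and *FGFRL1* as lower, none of them analysed here. In control clones the signal was weak, with a mean under 3.27, the median of all values of the clusters used. Only control clones 8 and 9 were under that median, and the array background was not examined. Over all 16377 clusters 5.79% passed at an adjusted p under 0.05, 3.77% higher and 2.02% lower. With a fold over 2 as well, 3.77% passed, 2.39% higher and 1.38% lower, and the groups did not overlap in 11.1%, with 6.47% higher and 4.62% lower. Among the 4247 clusters with a gene symbol 12.2% passed, 8.45% higher and 3.72% lower. *FGFR2* was higher by each of these criteria.

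**Figure D1:**
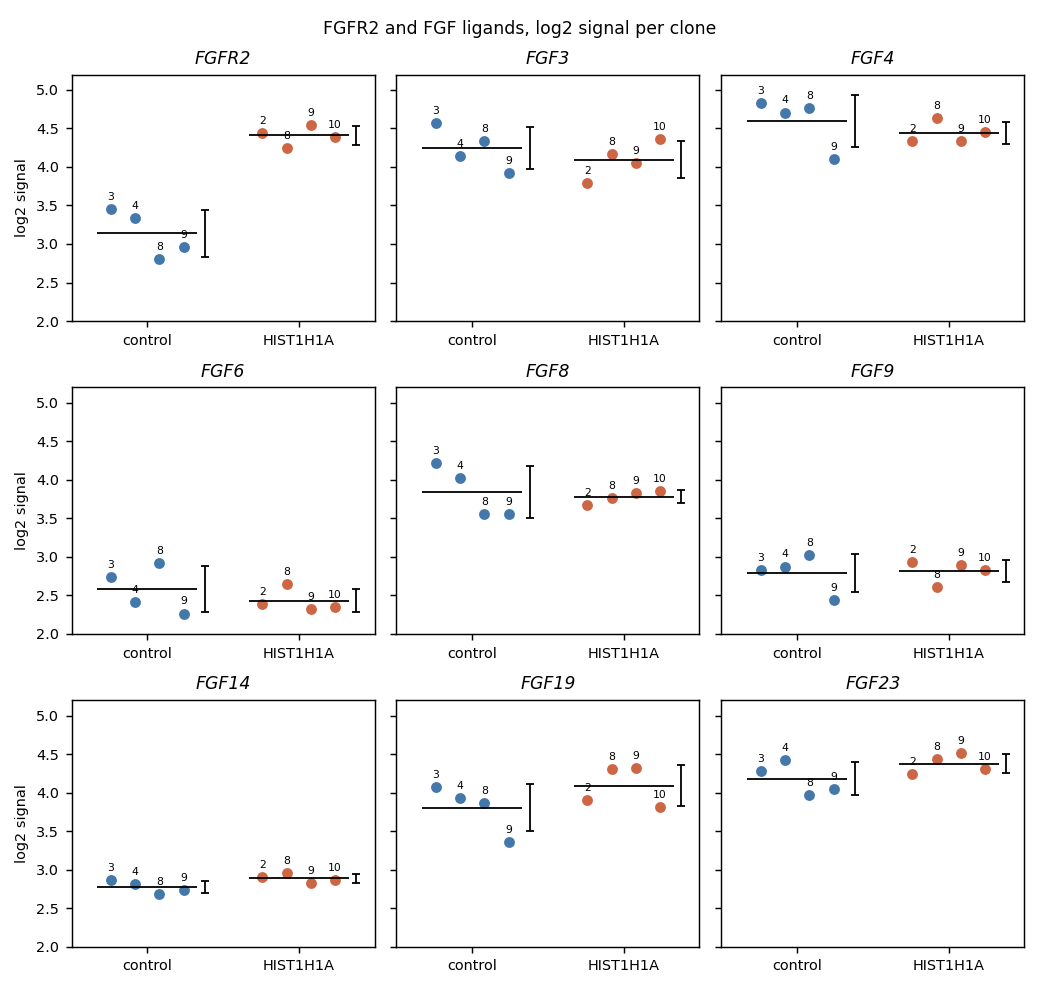
Log2 signal (y axis) of each of the 9 genes in the 4 control and 4 *HIST1H1A* clones, with clone numbers beside the points, the group mean as a line and the SD as a bar. The groups are apart for *FGFR2*, by 0.80, and overlap for the 8 FGF family genes.

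Markers of cell identity moved with the same groups. Of 18 listed genes of luminal prostate cells 5 were measured, *FOLH1*, *EHF*, *KRT8*, *KRT18* and *CREB3L4*, and all 5 fell, beside 3.72% of named clusters. With the methods' t-test 3 of the 5 passed. Of 15 other settings with at least 7 arrays, the call of *KRT18* was lost in 5 (among them those without control clone 4 and without *HIST1H1A* clone 8, 9 or 10) and that of *CREB3L4* in 2 (that test and without *HIST1H1A* clone 10). The mean log2 signal of the 5 luminal genes was 7.32 to 7.90 in control clones and 4.58 to 4.64 in *HIST1H1A* clones. Of 19 fibroblast and mesenchymal genes 7 were measured, with a mean of 3.30 to 3.46 in control and 3.79 to 3.94 in *HIST1H1A* clones, and *VIM* and *ZEB1* rose. The other 5 had log2 fold changes of -0.27 to 0.01, and the median of the 7 was -0.01. *VIM* rose by 2.86 in its brightest cluster and had 0.73 (adjusted p = 0.16 from limma) and 2.10 in its others. The call of *ZEB1* was lost in 5 of the 15 settings, among them those without control clone 4 and without *HIST1H1A* clone 2, 8 or 10. These 7 genes do not describe the mesenchymal genes that had no named cluster here. The study reports *SNAI2*, *ZEB2* and *CDH2*, not analysed here, as higher on these arrays. The fibroblast matrix genes *DCN* and *LUM* had means of 2.07 and 2.43 in control and 2.06 and 2.34 in *HIST1H1A* clones, below the median of all values. The 1 basal, 2 endothelial and 2 leukocyte genes measured did not pass, with log2 fold changes between -0.07 and 0.10. The part of these markers in the *FGFR2* result was not tested. In RNA of whole cultures, fewer cells of a type and less RNA per cell cannot be told apart. *HIST1H1A* was not analysed here, so the labels could not be checked on the over-expressed gene. The study reports a check of its over-expression in the clonal isolates by qRT-PCR and Western blot.

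**Figure D2:**
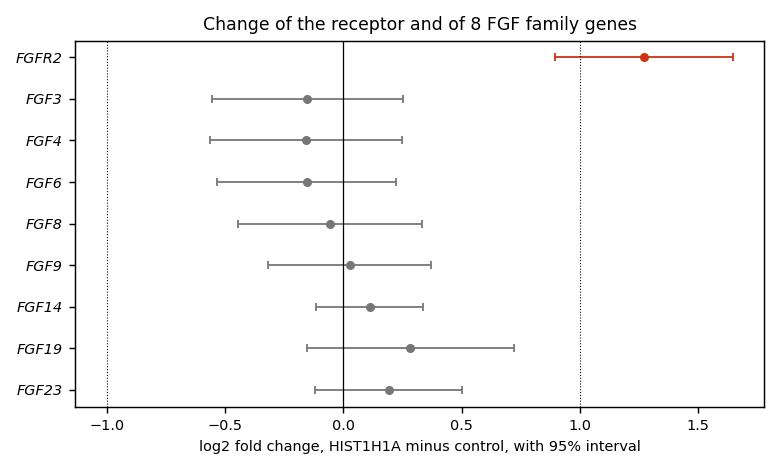
Log2 fold change, *HIST1H1A* minus control, of the 9 genes (points) with 95% intervals (bars) from limma on 4 against 4 clones. Red marks an adjusted p under 0.05, and dotted lines mark a fold of 2. The intervals of the 8 FGF family genes lie between -0.56 and 0.72.

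Of the 8 FGF family genes 0 passed the test, and the clones of both groups overlapped in each. Of 22 listed FGF genes only these 8 had a named cluster here, so the rest of the family is not described. The study reports *FGF2*, *FGF5* and *FGF11*, not analysed here, as higher on these arrays. Their log2 fold changes had a median of -0.01, beside -0.01 over all clusters, with 4 below and 4 above 0. Adjusted p from limma was 0.62 to 0.97, 0 of the 8 had an unadjusted p under 0.05, and 0 passed with the methods' t-test. Over all clusters the groups did not overlap in 11.1%. All 8 intervals lay within a change of 2-fold in either direction, the widest reach being -0.56 for *FGF4* and 0.72 for *FGF19*. All signals were low, from 2.26 to 4.83, and the array's response at such levels was not measured here.

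Among the canonical ligands, which act on nearby cells, *FGF3*, *FGF4* and *FGF6* had log2 fold changes of -0.15, -0.16 and -0.15. *FGF3* had 4.25 ± 0.28 (SD, n = 4) in control and 4.09 ± 0.24 (SD, n = 4) in *HIST1H1A* clones. *FGF4*, which signals in the early embryo, had 4.83, 4.71, 4.76 and 4.10 in control clones 3, 4, 8 and 9, so clone 9 stood below the other control clones. Its *HIST1H1A* clones lay inside the control range, at 4.34, 4.64, 4.33 and 4.45. *FGF6*, known from skeletal muscle, lay between 2.26 and 2.92 in control and between 2.32 and 2.65 in *HIST1H1A* clones. *FGF8*, first found as an androgen-induced growth factor in mouse mammary tumor cells, had a log2 fold change of -0.06 (95% interval -0.44 to 0.33). Its *HIST1H1A* clones spanned 3.68 to 3.85, inside the control span of 3.55 to 4.21. *FGF9*, a ligand of mesenchymal and epithelial cells in development, had a log2 fold change of 0.03 (95% interval -0.32 to 0.37), with 2.44 to 3.02 in control and 2.61 to 2.94 in *HIST1H1A* clones. The sign of the *FGF8* value turned without control clone 3 or 4, reaching 0.071, and that of *FGF9* without control clone 9 or *HIST1H1A* clone 2, reaching -0.091.

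The endocrine ligands had the 2 highest log2 fold changes among the 8 FGF family genes, and neither passed. *FGF19*, which represses bile acid synthesis in the liver, had 4.07, 3.93, 3.87 and 3.36 in control clones 3, 4, 8 and 9 and 3.91, 4.31, 4.33 and 3.82 in *HIST1H1A* clones 2, 8, 9 and 10. Its *HIST1H1A* clones 8 and 9 lay above all control clones, and clones 2 and 10 lay within the control range. The log2 fold change was 0.28 (95% interval -0.15 to 0.72, adjusted p = 0.62 from limma). *FGF23*, a bone hormone that lowers phosphate, had 4.18 ± 0.21 (SD, n = 4) in control and 4.37 ± 0.12 (SD, n = 4) in *HIST1H1A* clones, a log2 fold change of 0.19 (95% interval -0.12 to 0.50). The intracellular *FGF14* spread least, with 2.78 ± 0.077 (SD, n = 4) in control and 2.89 ± 0.059 (SD, n = 4) in *HIST1H1A* clones. The range of *FGF14* was 2.69 to 2.87 in control and 2.82 to 2.96 in *HIST1H1A* clones, so the groups overlapped by 0.04. Control clone 9 was the lowest control clone in 5 of the 8 genes and control clone 8 in the other 3, and over all clusters they were lowest in 31.7% and 28.9%.

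The change of *FGFR2* was larger than that of each of the 8 FGF family genes. The difference in log2 fold change was smallest against *FGF19*, at 0.99, and largest against *FGF4*, at 1.43. In 8 exact two-sided permutation tests of the difference within each array, p was 0.0286 in each, the smallest possible, and 0.0286 after Benjamini-Hochberg adjustment over the 8. *FGFR2* was chosen with its rise known, so these tests are not independent of that choice. All 8 tests also use the same *FGFR2* values, whose groups were already apart. They largely repeat the *FGFR2* result and give it no further support.

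Of 141 other listed genes of FGF signaling, 24 had a cluster on the table. Of these, 3 rose and 1 fell, so that 16.7% passed beside 12.2% of all named clusters. Their median log2 fold change was 0.09, beside 0.03 over named clusters. Among feedback inhibitors and targets, 2 of 7 rose and 1 fell, beside 8.45% higher and 3.72% lower among all named clusters. *SPRY2*, a Sprouty protein that restrains receptor tyrosine kinase signaling, had 5.03, 4.44, 4.79 and 3.75 in control clones 3, 4, 8 and 9 and 7.56, 6.53, 6.77 and 6.78 in *HIST1H1A* clones 2, 8, 9 and 10. It rose 5.30-fold, or 2.41 on the log2 scale (limma adjusted p = 0.0024, standard error 0.31), with no overlap between groups. *JUN*, a component of AP-1, rose 4.70-fold, from 7.38 ± 0.60 (SD, n = 4) to 9.61 ± 0.22 (SD, n = 4) (adjusted p = 0.0022 from limma). *CCND1*, which encodes cyclin D1, fell by 0.82 on the log2 scale (limma adjusted p = 0.012, standard error 0.14). Other genes induced by MAP kinase signaling did not pass. *DUSP6*, an ERK phosphatase often used as a readout of FGF signaling, had a log2 fold change of -0.11 (95% interval -0.44 to 0.22), *FOSL1* 0.15 and *DUSP10* -0.48. The nuclear ERK phosphatase *DUSP5* had a log2 fold change of 0.75 (adjusted p = 0.13 from limma), with all *HIST1H1A* clones above the control clones. *DUSP5* had another cluster, at 0.11.

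**Figure D3:**
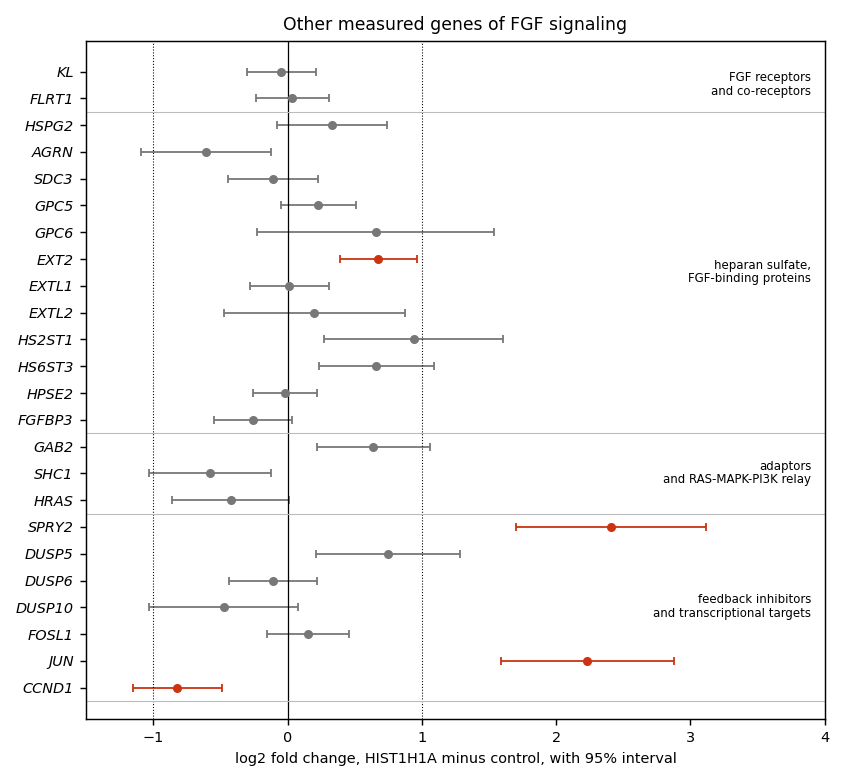
Log2 fold change, *HIST1H1A* minus control (x axis), of the 24 other measured genes of FGF signaling, by role, with 95% intervals from limma on 4 against 4 clones. Red marks an adjusted p under 0.05 and dotted lines a fold of 2. *SPRY2* and *JUN* lie farthest right, at 2.41 and 2.23.

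Among receptors and co-receptors, *FGFR2* was the 1 of 3 measured genes that rose, beside 8.45% of all named clusters. *KL*, which encodes klotho, the co-receptor of FGF23, had a log2 fold change of -0.05 (95% interval -0.31 to 0.21). *FLRT1*, a membrane protein that binds FGF receptors, had 0.04 in its brighter cluster and -0.36 in the other, and neither passed. *FGFR1*, *FGFR3* and *FGFR4* were not analysed here.

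Of 12 genes of heparan sulfate and FGF-binding proteins, 1 rose. This was 8.33%, near the 8.45% of all named clusters that rose. *EXT2*, a glycosyltransferase that extends heparan sulfate chains, had 6.03 to 6.35 in control and 6.72 to 7.09 in *HIST1H1A* clones, and rose 1.60-fold (limma adjusted p = 0.016). Its call was lost in 4 of 17 other settings, with limma adjusted p of 0.061 with trend and robust settings, 0.054 without control clone 4, and 0.45 and 0.37 in the 4 arrays of clones 8 and 9. The heparan sulfate sulfotransferases *HS2ST1* and *HS6ST3* had log2 fold changes of 0.94 and 0.66 (adjusted p = 0.13 and 0.094 from limma) and did not pass. The proteoglycan genes *AGRN*, *HSPG2*, *SDC3*, *GPC5* and *GPC6* had values between -0.61 and 0.66, and *FGFBP3*, whose protein releases FGFs from the matrix, had -0.26. The 3 measured genes of the relay to RAS, the adaptors *SHC1* and *GAB2* and the GTPase *HRAS*, had log2 fold changes of -0.58, 0.64 and -0.43. Limma and the methods' t-test each passed 0 of these 3 after adjustment and 2 at an unadjusted p under 0.05. Sodium channel partners of FGF14 and the endocrine targets of FGF19 and FGF23 were not analysed here.

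**Figure D4:**
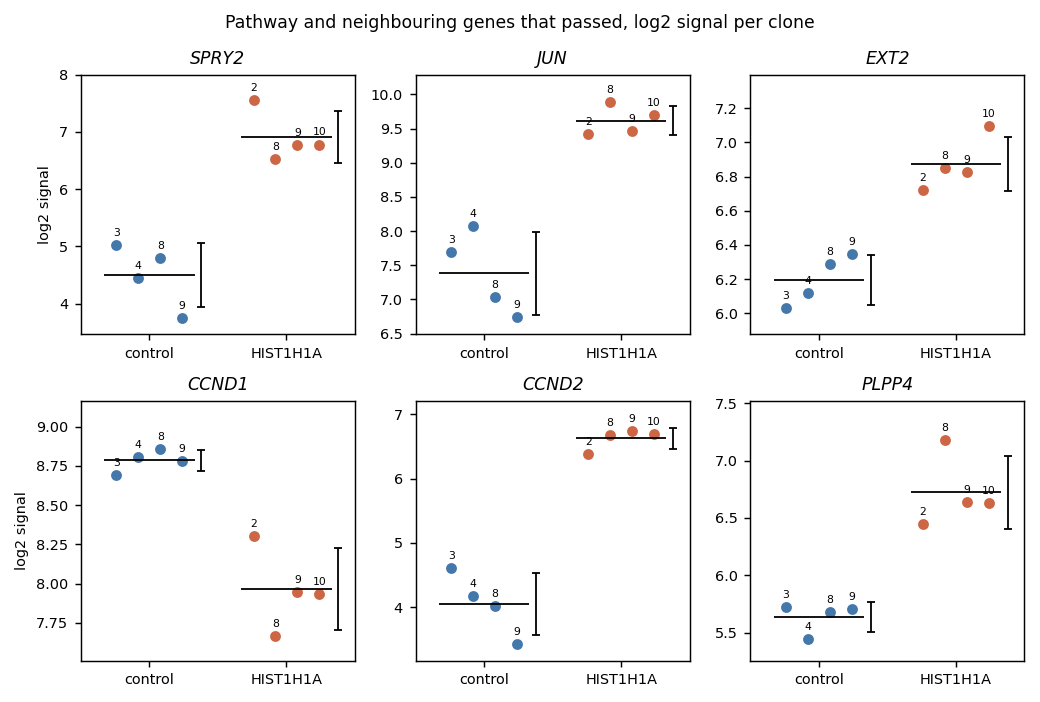
Log2 signal (y axis, a scale of its own for each gene) in each clone for 4 pathway genes and 2 neighbours of the FGF genes that passed the test, with clone numbers, group means as lines and SD as bars. *CCND1* was lower and the other 5 genes were higher in all 4 *HIST1H1A* clones.

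Of the genes nearest to these 9 on their chromosomes, most did not pass the test. For each gene the 5 nearest measured genes on each side were taken by RefSeq order, which gave 60 different neighbours. Among them 8 rose and 5 fell, 21.7% of the 60, beside 12.2% of all named clusters. Beside *FGFR2*, *PLPP4*, a phospholipid phosphatase gene, rose 2.12-fold (adjusted p = 0.0066 from limma), from 5.64 ± 0.13 (SD, n = 4) to 6.72 ± 0.32 (SD, n = 4). The 2 measured genes between them, *WDR11-DT* and *WDR11*, had log2 fold changes of 0.19 and 0.65, and *ATE1* and *NSMCE4A* on the other side had 0.24 and 0.08, with none of these passing.

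*FGF19*, *FGF4* and *FGF3* lie in a row on chromosome 11 near *CCND1*, and *FGF23* and *FGF6* on chromosome 12 near *CCND2*. Among the measured genes *LTO1* lies between *CCND1* and *FGF19*, and its log2 fold change of 0.32 did not pass. *CCND1* fell, and the brighter of 2 *CCND2* clusters rose. *CCND1* had 8.70, 8.81, 8.86 and 8.78 in control clones 3, 4, 8 and 9 and 8.31, 7.67, 7.95 and 7.94 in *HIST1H1A* clones 2, 8, 9 and 10. *CCND2* had 4.60, 4.17, 4.02 and 3.44 in the same control clones and 6.38, 6.68, 6.74 and 6.69 in the same *HIST1H1A* clones. The groups did not overlap for either cluster. *CCND2* rose 5.92-fold in this cluster (log2 fold change 2.57, adjusted p = 0.00039 from limma). Its other cluster, of weaker signal, had 0.14 (adjusted p = 0.73 from limma). The strand it reads was not checked, so the mean of both, 1.35, may mix unlike transcripts. *FGF23* and *FGF6*, separated from *CCND2* by *TIGAR* among the measured genes, had 0.19 and -0.15. The other neighbours that passed were *TPCN2*, *CRACR2A*, *AKAP3*, *BTRC*, *LBX1-AS1* and *ZIC2*, which rose, and *SHANK2*, *MRPL57*, *MIPEP* and *SPATA13*, which fell. *BTRC*, near *FGF8*, rose 3.27-fold and *ZIC2*, a zinc finger transcription factor gene near *FGF14*, 2.99-fold. *MRPL57*, next to *FGF9*, was 2.22-fold lower. The calls of *AKAP3*, *LBX1-AS1*, *MIPEP*, *SHANK2* and *SPATA13* were lost in 4 to 8 of the 15 other settings with at least 7 arrays (adjusted p up to 0.15, from limma or the methods' t-test) and in both fits of the 4 arrays of clones 8 and 9 (up to 0.47).

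**Figure D5:**
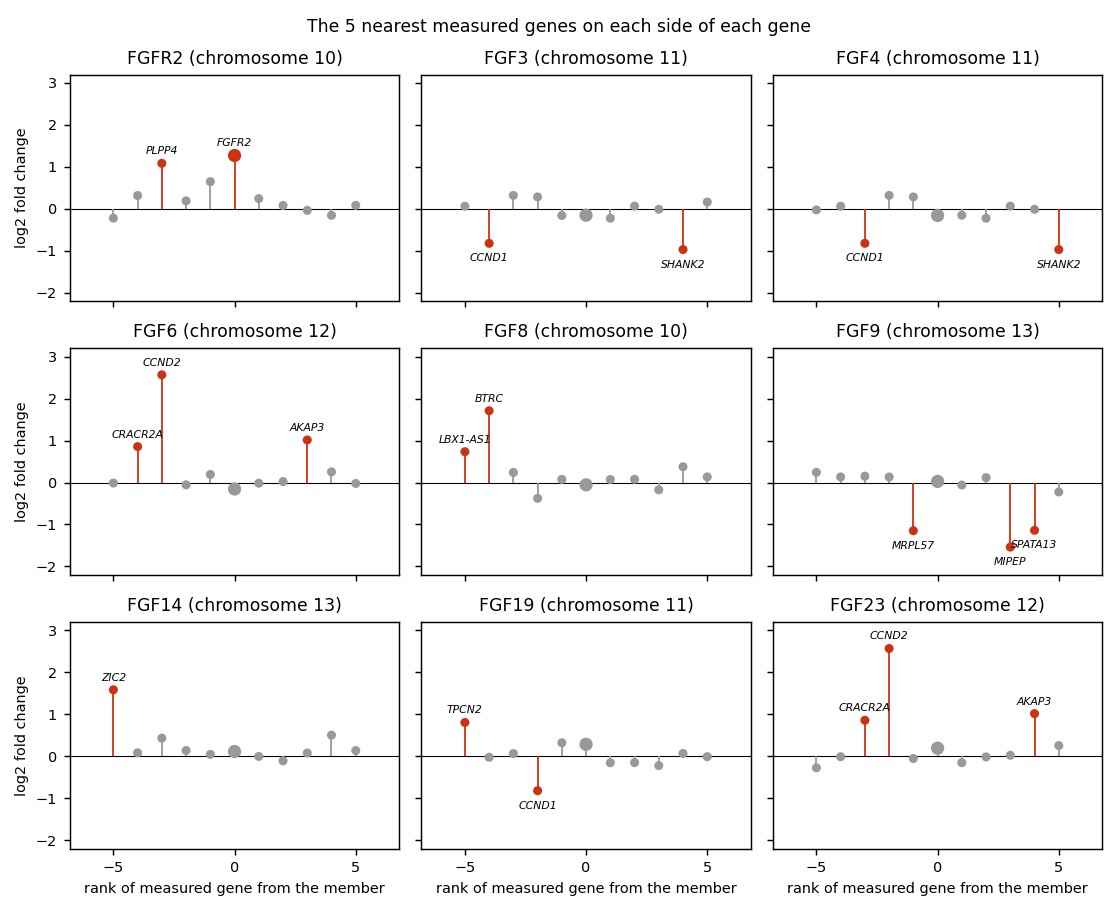
Log2 fold change, *HIST1H1A* minus control (y axis), of each of the 9 genes (large point at rank 0) and of the 5 nearest measured genes on each side (x axis, rank by RefSeq order, not distance). Red marks an adjusted p under 0.05 from limma. The brighter *CCND2* cluster reached 2.57 (its other cluster, not drawn, had 0.14), and *FGF23* and *FGF6* had 0.19 and -0.15.

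The named clusters whose log2 signals, centred on their own mean, followed *FGFR2* most closely over the 8 arrays were those of *GATAD2B*, *RERE*, *P3H1*, *SLC66A1* and *ESPL1*. Their root mean square difference from *FGFR2* was 0.12, 0.13, 0.14, 0.16 and 0.16 on the log2 scale, among 4246 clusters compared. All 5 had log2 fold changes between 1.08 and 1.30, which follows from how they were chosen. *GATAD2B*, a subunit gene of the NuRD chromatin complex, had 8.18, 8.18, 7.73 and 7.89 in control clones 3, 4, 8 and 9. Its lower values were in control clones 8 and 9, as for *FGFR2*, which also follows from how it was chosen. In the 4 *HIST1H1A* clones *GATAD2B* had 9.01 to 9.11.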

How the data were processed

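Arrays of the Affymetrix Human Gene 2.0 ST design were hybridized with total RNA of LNCaP clones, 4 per group. The deposited values are log2 signals, 1 per transcript cluster, from the authors' work in Partek. Its version, how probes were summarized and how arrays were normalized: not given in the sources used here. The values were used as they stood. Of 16377 clusters, 4247 had a symbol in the platform annotation, updated through gene identifiers. These named 4072 genes, nearly all on chromosomes 1 and 10 to 14. Measured means that a gene had a named cluster here, so a gene counted as not measured may still be on the array. The cluster does not tell splice forms of a gene apart.

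limma 3.58.1 (R 4.3.3; lmFit, eBayes) was fitted to all 8 arrays without covariates, with Benjamini-Hochberg adjustment over every cluster. Rose and fell mean an adjusted p under 0.05. Where a gene had more than 1 cluster, the brightest stands for it. Which strand each cluster reads was not checked, so a gene's other clusters may not read its transcript. The methods' t-test comes from a legend of the study and may not be the test applied to the arrays. The script was tested on simulated data. Alternatives were other tests, normalizations, filters and array sets.

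The genes and lists were chosen with earlier results of these data known. The rule named all 9 genes, up to 4 rises and 4 falls per pathway list, measured receptors and co-receptors, neighbours that passed, cell markers and the 5 genes most like *FGFR2*. Other genes were named after their values were seen. The number of arrays limits the precision.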

Additional observations from a re-analysis of the deposited data

Results flagged for a closer look

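Each group of 4 clones was searched for a clone far from the rest, gene by gene. This found 6 cases in 134 groups, and chance alone gives about 6.7. The log2 signal of *FGF4* in control clone 9 was 4.10, with the next value at 4.71. For *PLPP4*, control clone 4 had 5.44 and the next clone 5.68. For *TIE1*, control clone 3 had 3.44 and the next clone 2.91. *HIST1H1A* clone 8 was low for *BTRC* (6.96, next 7.50) and for *MIPEP* (4.94, next 5.52). *HIST1H1A* clone 2 was low for *SDC3* (5.44, next 5.86).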

How the results depend on the processing

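The rise of *FGFR2* passed with the methods' t-test, trend and robust settings, quantile normalization, median centring, removal of dim clusters, testing of named clusters alone (adjusted p up to 0.016) and without any 1 array (log2 fold change 1.16 to 1.37, adjusted p up to 0.013). It did not pass when tested against a fold of 2 (1.27, limma adjusted p = 1). Clone numbers 8 and 9 occur in both groups, and the labels do not tell whether clones of the same number are related. Deviations from group means had correlations of 0.07 and -0.22 between the arrays of the same number, which cannot settle this. In these 4 arrays *FGFR2* had 1.52 (adjusted p = 0.17 from limma with a replicate block and 0.095 without it), and 0 and 1 of the 33 measured FGF signaling genes passed, beside 5 in all arrays and 4 to 7 without 1 array. Fewer arrays enter that fit. The 618 clusters called at a fold over 2 became 397 with the methods' t-test, 388 over named clusters, 118 against a fold of 2, and 0 with the block and 75 without it in the 4 arrays (480 to 672 without 1 array). The cause of the difference with the t-test was not tested. The FGF family genes passing stayed at 0 in all settings run. Signs of values near 0 turned: in the 4 arrays *FGF4* had 0.056, *FGF8* 0.25 and *KL* 0.09; without 1 array *FGF8* had -0.15 to 0.071, *FGF9* -0.091 to 0.10 and *FLRT1* -0.024 to 0.083. *FLRT1* had -0.0079 after quantile normalization and -0.16 as the mean of its clusters. Among the 39 genes tracked over the settings, 29 passed, 20 of them in every setting of 7 or 8 arrays other than the test of *FGFR2* against a fold of 2, and 0 of the 29 changed direction.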
